A study of Danio rerio with 4 samples.

Results

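The lens crystallin genes of zebrafish were followed in RNA from dissected eyes of *tet2*-/-;*tet3*-/- mutants and of siblings at 36hpf and at 72hpf (hours post fertilization). Members were all genes whose symbols start with crya, cryb or cryg, leaving out the *crybg* genes, and the rule found 57 genes among 31388 at 36hpf and the same 57 among 31950 at 72hpf. There were 3 alpha-, 13 beta- and 41 gamma-crystallin genes, and 21 of the gamma genes were numbered copies of *crygm2d*. Whole eyes came from untreated embryos of the TL strain, 100 eyes per stage by the study's methods, and the labels give 1 sample per genotype and stage, 4 in all. Both alleles are frameshifts that truncate the protein ahead of its catalytic domain, and Tet proteins oxidize methylated cytosine in DNA. The siblings were phenotypically wild type, and the sources used here do not say which alleles they carried. With 1 sample per group there is no replicate error, so every difference below is a difference between 2 libraries and carries no p-value.

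Crystallins are the main soluble proteins of the lens and give it its refractive power. Alpha-crystallins belong to the small heat shock proteins and act as chaperones that keep other lens proteins in solution. Beta- and gamma-crystallins share a fold built of Greek key motifs, and beta-crystallins join into dimers and larger complexes whereas gamma-crystallins stay single. Fish lenses are rich in the gamma-M type (*crygm*), small proteins with many methionines that pack densely in the hard fish lens. Lens fibre cells make crystallin in bulk while they elongate and then lose their nuclei and organelles.

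At 36hpf the values were sums of reads per gene, 88875538 over all genes in the sibling-labelled library and 106912677 in the mutant-labelled library, and at 72hpf they were FPKM (fragments mapped to a gene, scaled to its length and to the library's total), whose depth per library is unknown from the files. *tet2* had 9646 reads in the sibling-labelled and 12459 in the mutant-labelled library at 36hpf, and 33.6 and 34.1 FPKM at 72hpf. *tet3* had 8381 and 8611 reads, and 55.9 and 37.9 FPKM. Because *tet2* was not lower under the mutant label at either stage, each library is named by its label, sibling-labelled or mutant-labelled. Markers of lens fibre and of retina were present in all 4 libraries. These are whole-eye samples, so fewer lens cells and less RNA per lens cell cannot be told apart.

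At 36hpf mutant-labelled eyes held far fewer crystallin transcripts than sibling-labelled eyes, with *cryaa*, *crygmxl1* and the *crygm2d* copies among the furthest apart. Crystallin reads made up 1.18% of all reads under the sibling label and 0.207% under the mutant label. After scaling by TMM (trimmed mean of M values, a correction for depth and composition), the crystallin total was 5.82-fold lower. The alpha total was 32.5-fold lower, the beta total 4.85-fold and the gamma total 10.9-fold. Of the 57 genes, 44 had at least 20 reads over both libraries, and for 36 of these the log2 fold-change was -2 or less, the threshold of the study's methods. Of all 21876 genes kept at that minimum, 1.4% were at -2 or less. Of the 36, *crybb2*, *crygm5*, *crygmxl1*, *crygm2d6*, *crygm2d7*, *crygm2d11*, *crygm2d14*, *crygm2d15* and *crygm2d16* passed that minimum through the sibling-labelled library alone. Of these, *crygm5* (20 and 1 reads), *crybb2* (35 and 3) and *crygm2d11* (50 and 0) had the fewest reads. At a minimum of 100 reads, 33 crystallin genes were at -2 or less. In all 41 were below 0, and 49.0% of all genes kept were. The median of the 44 was -3.88 and that of all genes kept was 0.011. Only *crybb3* was at 2 or more, where 1.77% of all genes kept were. It passed the minimum through the mutant-labelled library alone (13 and 70 reads). The 95% interval of the ratio (Clopper-Pearson) lay wholly below -2 for 34 genes, held 0 for 2 and lay wholly above 0 for 2, and these intervals cover counting error only. The other 13 genes had at most 16 reads in either library, and 4 of them (*crygm1*, *crygm2c*, *crygm6* and *crygm7*) had none.

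**Figure D1:**
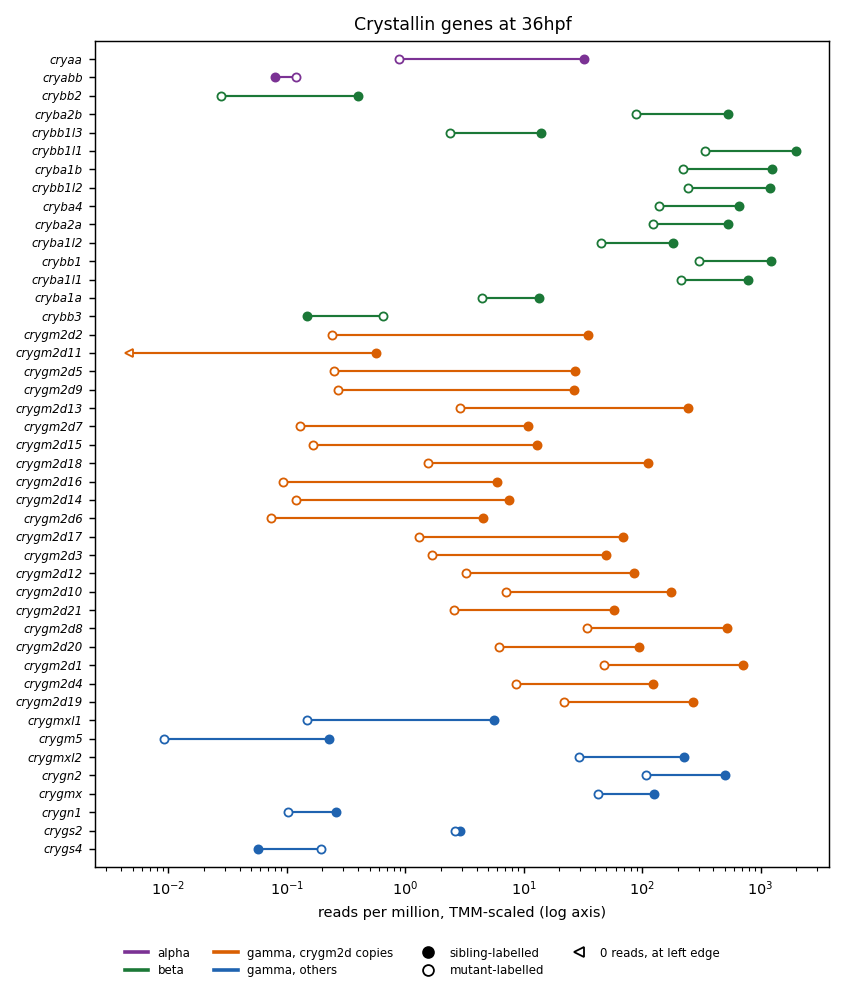
Reads at 36hpf as CPM, TMM-scaled (counts scaled to the library's size), on a log axis, for the 44 crystallin genes with at least 20 reads over both libraries. Filled points are the sibling-labelled and open points the mutant-labelled library, 1 sample each with no error bars, colours mark the classes, and the triangle at the left edge is *crygm2d11* with 0 reads. Many of the *crygm2d* copies, *cryaa* and *crygmxl1* span the widest gaps, and *cryabb*, *crybb3* and *crygs4* have the open point to the right.

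Of the alpha genes, 1 was well expressed at 36hpf. *cryaa*, the alphaA-crystallin gene on chromosome 1, had 2849 reads under the sibling label and 95 under the mutant label. That is 36.8-fold lower in mutant-labelled eyes (-5.19 as a log2 fold-change, interval -5.51 to -4.91), further apart than any beta gene. The duplicates of alphaB-crystallin were barely read. *cryaba* had 3 and 0 reads, too few for a fold. *cryabb* had 7 and 13 reads, and its log2 fold-change of 0.57 had an interval that held 0 (-0.83 to 2.16).

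Most beta genes were lower in mutant-labelled eyes by a factor of 3.01 to 5.99. All 13 passed the minimum, 10 were at -2 or less (1.4% of all genes kept), and their median was -2.24. Leaving out *crybb2* and *crybb3*, which had few reads, the other 11 all lay in that range, and their sibling reads, which are not per length, ran from 1181 to 175528. Among the basic beta genes, *crybb1l1* had the most reads of any crystallin, 175528 under the sibling label and 36975 under the mutant label (-2.54, interval -2.56 to -2.53). *crybb1* had 107203 and 32374 reads (-2.02), right at the threshold, and scaling by total counts moved it to -1.99. *crybb1l2* had 105230 and 26236 reads (-2.30). *crybb1l3* was read far less than its relatives, with 1235 and 257 reads, yet its log2 fold-change of -2.56 was close to that of *crybb1l1*.

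The acidic beta genes ran from -2.58 to -1.59. *cryba1b* was the most read, with 110850 reads under the sibling label and 24025 under the mutant label (-2.50). *cryba2b* had 46918 and 9606 reads (-2.58), the lowest ratio of the acidic genes, and its duplicate *cryba2a*, with nearly the same sibling value of 46939 reads, kept more in mutant-labelled eyes, 13368 reads (-2.11). The interval of *cryba2b* (-2.61 to -2.55) lay below that of *cryba2a* (-2.13 to -2.08). *cryba4* had 57632 and 14948 reads (-2.24) and *cryba1l2* had 16118 and 4835 (-2.03). The mildest were *cryba1l1*, with 68560 and 23130 reads (-1.86), and *cryba1a*, with 1181 and 481 (-1.59).

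Both sparse beta genes stood apart from these, in opposite directions. *crybb2* had 35 reads under the sibling label and 3 under the mutant label, a ratio of 14.3 with a wide interval on the log2 scale (-6.18 to -2.17). *crybb3* had 13 reads under the sibling label and 70 under the mutant label and was 4.39-fold higher (log2 interval 1.27 to 3.11). It was the sole crystallin past the threshold on the high side, and adding 5 reads in place of 0.5 before the log took it to 1.82.

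The gamma genes outside the *crygm2d* group were mixed. Of these 20 genes 8 passed the minimum and 4 were at -2 or less (1.4% of all genes kept). The values ran from -5.21 to 1.69 with a median of -1.90. *crygn2*, a gamma-N gene, was the most read, with 44239 reads under the sibling label and 11570 under the mutant label (-2.23), a ratio like those of the beta genes. *crygmxl2* had 20040 and 3153 reads (-2.96), while its neighbour on chromosome 12, *crygmx*, had 11095 and 4563 (-1.58). *crygmxl1*, which lies on chromosome 9 among the *crygm* genes, had 498 and 16 reads and was 38.2-fold lower (-5.21, interval -6.07 to -4.54). It passed the minimum through the sibling-labelled library alone. The genes named crygmx thus spanned -5.21 to -1.58.

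The remaining gamma genes had few reads. *crygm5* had 20 reads and 1 read, a ratio of 24.5 whose log2 interval ran from -9.99 to -1.97. *crygn1* had 23 and 11 reads (-1.32, interval -2.54 to -0.26). Both *crygm5* and *crygn1* passed the minimum through the sibling-labelled library alone. Of the gamma-S genes 2 passed the minimum, and neither was lower beyond its interval. *crygs2* had 253 and 286 reads (-0.12, interval -0.37 to 0.13). *crygs4* had 5 and 21 reads (1.69, interval 0.33 to 3.54), and its log2 fold-change was 0.97 from the larger and 2.73 from the smaller counts. It passed the minimum through the mutant-labelled library alone. Of *crygm2a*, *crygm2b*, *crygm2e*, *crygm2f*, *crygm3*, *crygm4*, *crygs1* and *crygs3*, all under the minimum, none had more than 16 reads in sibling-labelled or 8 in mutant-labelled eyes.

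All 21 *crygm2d* copies passed the minimum and all were at -2 or less (1.4% of all genes kept). Of the copies, *crygm2d6*, *crygm2d7*, *crygm2d11*, *crygm2d14*, *crygm2d15* and *crygm2d16* passed it through the sibling-labelled library alone. The median copy was *crygm2d6*, with 401 reads under the sibling label and 8 under the mutant label. The median of the copies was -5.85 (-5.71 with *crygm2d11*, at 0 reads under the mutant label, set to a floor of 3 reads) and they ran from -7.14 to -3.63. They are close paralogs, so reads may be shared or split between them, which makes the values of single copies uncertain. Their sum was 233926 reads under the sibling label and 15117 under the mutant label, 19.0-fold lower (-4.25, interval -4.27 to -4.22). The sum is less extreme than the median copy because the 3 copies with most reads were among the least lowered.

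*crygm2d1* had the most reads, 62890 under the sibling label and 5141 under the mutant label (-3.91). *crygm2d8* had 46237 and 3677 reads (-3.95), and *crygm2d19* had 23874 and 2361 (-3.63), the smallest difference of the group. These 3 copies were 12.4- to 15.4-fold lower. *crygm2d13*, the fourth by sibling reads, broke that pattern with 21671 and 314 reads, 84.6-fold lower (-6.40, interval -6.57 to -6.24). The 9 copies with fewest sibling reads (50 to 3061) had fitted values between -7.14 and -5.85 and 0 to 29 reads in mutant-labelled eyes. Among them *crygm2d2* had 3061 and 26 reads and was 144-fold lower (-7.14, interval -7.79 to -6.62). *crygm2d11* had 50 and 0 reads and was at least 20.4-fold lower, against a floor of 3 reads in the mutant-labelled library. *crygm2d5* is less certain than its 2390 and 27 reads make it look: the 2 counts behind its mutant-labelled value were 26 and 1, and its log2 fold-change was -6.26 from the larger counts and -9.26 from the smaller ones. Among the 31 crystallin genes with at least 1000 reads the median gap between the larger and the smaller counts was 0.10 on the log2 scale, and the 3.01 of *crygm2d5* was the widest. The counts were sorted by size for each gene and library, so larger and smaller counts need not match between libraries.

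At 72hpf most expressed crystallins were lower in mutant-labelled eyes, and the beta and gamma totals differed by nearly the same factor. Crystallins took 14.5% of the summed FPKM of sibling-labelled and 6.94% of that of mutant-labelled eyes. The summed crystallin FPKM was 2.01-fold lower, with the gamma total 2.01-fold and the alpha total 1.62-fold lower, and the beta total stood at 30556 and 15289 FPKM, close to the same ratio. Of the 57 genes 44 reached 1 FPKM in 1 or both libraries. Of these, 3 had a difference of log2(FPKM + 1) of -2 or less, where 1.77% of all 17307 genes kept did, and 21 were at -1 or less, where 9.02% did. Of those 3, *crybb2* and *crygn1* passed the minimum through the sibling-labelled library alone. None was at 1 or more, where 3.65% of all genes kept were. In all 40 were below 0, and 48.1% of all genes kept were. The median of the 44 was -0.99 and that of all genes kept was 0.023. Among the 33 crystallins at 100 FPKM or more in both libraries, 32 were lower in mutant-labelled eyes and *crygmx* was not. The 13 genes under the minimum had at most 0.674 FPKM under the sibling label and 0.852 under the mutant label.

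**Figure D2:**
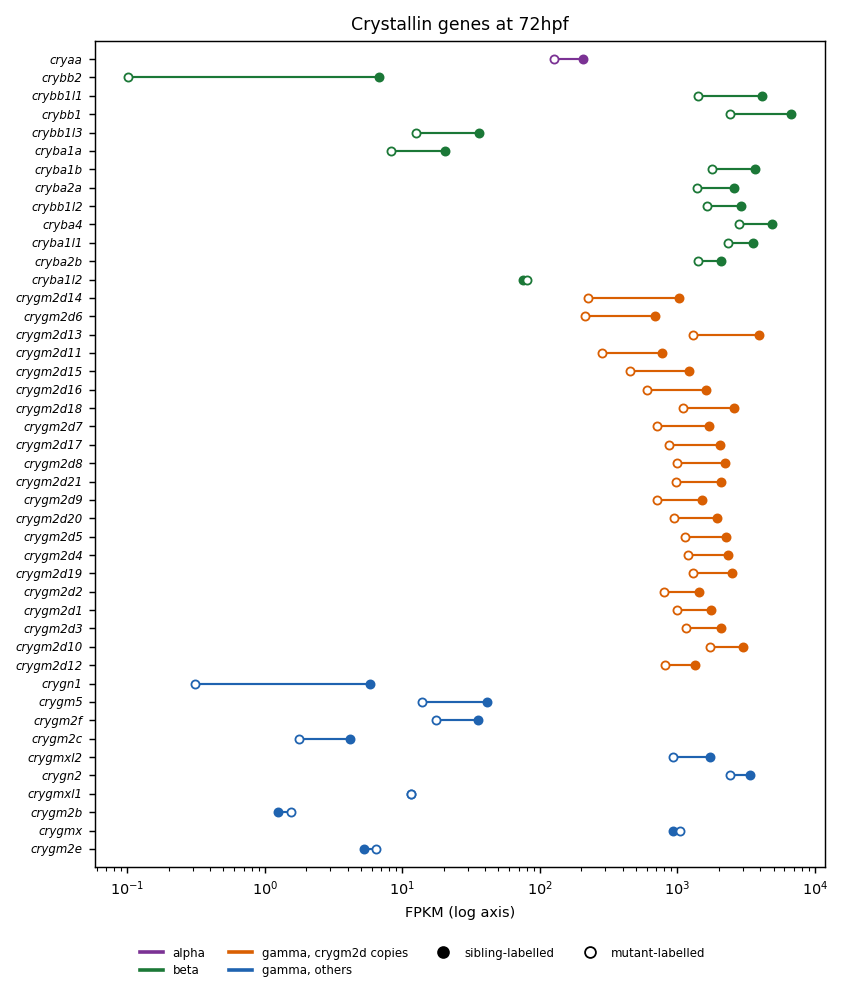
FPKM at 72hpf on a log axis for the 44 crystallin genes that reached 1 FPKM in 1 or both libraries. Filled points are the sibling-labelled and open points the mutant-labelled library, 1 sample each with no error bars, and colours mark the classes. Most pairs lie close together above 100 FPKM with the open point to the left, and *crybb2* and *crygn1* span the widest gaps.

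In FPKM, which are per length and can be compared between genes, crystallins were among the most abundant transcripts of the sibling-labelled eye at 72hpf. They held 5 of the 10 highest places by FPKM in that library, 26 of the first 50 and 30 of the first 100. In the mutant-labelled library they held 0, 6 and 12. Many of the places under the sibling label were held by *crygm2d* copies, most of which are given the same annotated span. The sources used here do not say how reads were divided between such genes, so the counts of places are uncertain. *crybb1* was the highest under the sibling label, at place 2, and *cryba4* under the mutant label, at place 11.

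The alpha class had 1 gene expressed at 72hpf. *cryaa* had 204 FPKM under the sibling label and 126 under the mutant label (-0.69). *cryabb* stood at 0.0727 and 0.199 FPKM, and *cryaba* was listed at 0 in both libraries.

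Of the beta genes, 8 had more than 1000 FPKM in each library, and these were 1.46- to 2.90-fold lower in mutant-labelled eyes. The basic genes *crybb1l1* (4101 and 1413 FPKM, -1.54) and *crybb1* (6747 and 2412 FPKM, -1.48) lay furthest apart. *cryba2b* (2072 and 1418 FPKM, -0.55) and *cryba1l1* (3520 and 2322 FPKM, -0.60) lay closest. So *cryba2b*, the lowest of the acidic genes by ratio at 36hpf, was the least lowered of the abundant beta genes at 72hpf. *cryba1b* had 3657 and 1782 FPKM (-1.04), *cryba2a* 2594 and 1390 (-0.90), *crybb1l2* 2887 and 1649 (-0.81) and *cryba4* 4838 and 2802 (-0.79).

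Of the less abundant beta genes, *crybb1l3* had 36.1 and 12.6 FPKM (-1.45) and *cryba1a* had 20.6 and 8.28 (-1.22). *cryba1l2* had 75.9 and 80.4 FPKM (0.082) and was the sole beta gene not lower in mutant-labelled eyes. The 72hpf table gives *cryba1l2* and *crybb1l2* the same span (GRCz10 chromosome 1, 43720616 to 43745614), and *cryba1a* and *crybb1l3* share a span with another gene (chromosome 15, 28153817 to 28192348). *crybb1* (4 genes) and *cryba2a* (3 genes) have joint spans too, as do *crygm2f* and *crygm5* among the gamma genes (5 genes). For genes with a joint span, the sources used here do not say how reads were divided between them. *crybb2* had 6.77 FPKM under the sibling label and 0.102 under the mutant label, -2.82 on the log2(FPKM + 1) scale, which damps differences of low genes. As a ratio it was 66.4-fold lower. The mutant-labelled value lies under the minimum of 1 FPKM, so the size of that ratio is uncertain. *crybb2* was sparse and low in mutant-labelled eyes at both stages, and at 72hpf it passed the minimum through the sibling-labelled library alone. *crybb3* was under the minimum, with 0.148 and 0.0770 FPKM.

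Among the gamma genes outside the *crygm2d* group, 10 passed the minimum, with a median of -0.69 and a range of -2.38 to 0.25. *crygn2* was the most abundant, at 3389 FPKM under the sibling label and 2419 under the mutant label (-0.49). *crygmxl2* had 1716 and 927 FPKM (-0.89), and its neighbour *crygmx* had 923 and 1052 (0.19). As at 36hpf, *crygmx* kept more of its level in mutant-labelled eyes than *crygmxl2* did. *crygmxl1*, 38.2-fold lower at 36hpf, had 11.6 FPKM in both libraries (-0.0093). *crygn1* had 5.83 and 0.309 FPKM (-2.38), and like *crybb2* it passed the minimum through the sibling-labelled library alone. Its ratio of 18.9 is uncertain in size for the same reason, a mutant-labelled value under the minimum.

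The remaining genes of this group were low. *crygm5* had 41.5 and 13.8 FPKM (-1.52), *crygm2f* 35.6 and 17.7 (-0.97) and *crygm2c* 4.15 and 1.76 (-0.90). *crygm2e* had 5.24 and 6.41 FPKM (0.25) and *crygm2b* 1.26 and 1.56 (0.18), and these 2 were higher in mutant-labelled eyes. *crygs2* and *crygs4*, which stood apart at 36hpf, had 0.246 and 0.275 FPKM and 0.216 and 0.374 FPKM.

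At 72hpf all 21 *crygm2d* copies were lower in mutant-labelled eyes, between 1.66- and 4.61-fold, with a median of -1.08. Of the copies 13 were at -1 or less, where 9.02% of all genes kept were. Summed over copies they had 40019 FPKM under the sibling label and 18487 under the mutant label, 2.16-fold lower, close to the ratio of the beta total. *crygm2d13* was the most abundant copy, at 3924 and 1300 FPKM (-1.59). It was followed by *crygm2d10* at 2989 and 1737 FPKM (-0.78), *crygm2d18* at 2590 and 1092 (-1.25) and *crygm2d19* at 2509 and 1292 (-0.96). *crygm2d14* was the sole copy past -2, at 1029 and 223 FPKM (-2.20). *crygm2d12* differed least, at 1348 and 810 FPKM (-0.73).

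The copies lie side by side on chromosome 9 (GRCz10, 22280291 to 22528713), and the 72hpf table gives 17 of them 1 joint span (22316748 to 22528713). *crygm2d11* (22287705 to 22288667), *crygm2d13* (22280291 to 22281456), *crygm2d15* (22305730 to 22306561) and *crygm2d18* (22310883 to 22311721) have spans of their own. At 72hpf these 4 copies had differences of -1.45, -1.59, -1.43 and -1.25, each below the median of the group. Copies of the joint span lay on both sides of that median, from -2.20 (*crygm2d14*) to -0.73 (*crygm2d12*). At 36hpf *crygm2d13*, *crygm2d15* and *crygm2d18* had log2 fold-changes of -6.40, -6.23 and -6.17, below the median too, and *crygm2d11* had 50 and 0 reads. Copies of the joint span ran from -7.14 (*crygm2d2*) to -3.63 (*crygm2d19*) at that stage.

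**Figure D3:**
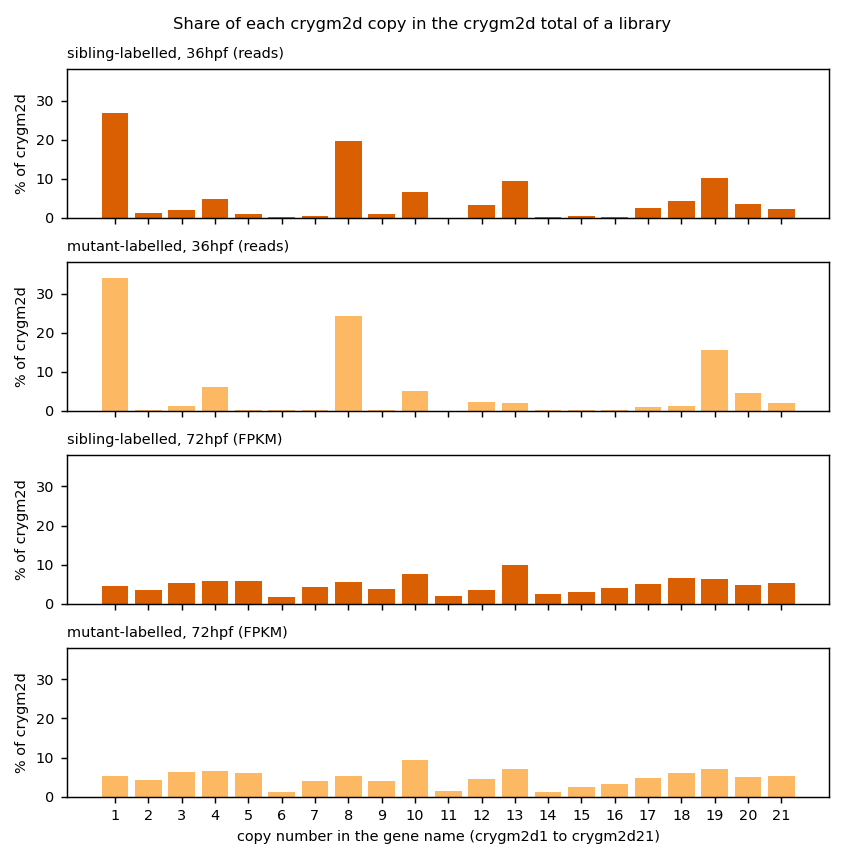
Share (%) of each *crygm2d* copy, numbered 1 to 21 on the horizontal axis, in the *crygm2d* total of each of the 4 libraries, from reads at 36hpf and from FPKM at 72hpf, 1 sample each. At 36hpf the copies 1, 8 and 19 stand out in both libraries, and at 72hpf the highest bar is 5.68 (sibling-labelled) and 8.23 (mutant-labelled) times the lowest.

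At 36hpf 3 copies held most of the *crygm2d* reads in each library, which was not so for FPKM at 72hpf. *crygm2d1*, *crygm2d8* and *crygm2d19* together held 56.9% of the *crygm2d* reads of sibling-labelled and 73.9% of those of mutant-labelled eyes. At 72hpf the 3 highest copies held 23.7% of the *crygm2d* FPKM under the sibling label and 23.4% under the mutant label. *crygm2d1* alone went from 26.9% of the reads at 36hpf to 4.41% of the FPKM at 72hpf in sibling-labelled eyes. *crygm2d13* held 9.26% of the reads under the sibling label and 2.08% under the mutant label at 36hpf, and at 72hpf it held 9.81% and 7.03% of the FPKM. The highest copy exceeded the lowest 1258-fold in sibling-labelled eyes at 36hpf and 5.68-fold at 72hpf, and 8.23-fold in mutant-labelled eyes at 72hpf. Reads are not per length and FPKM are, and the stages were sequenced and counted by different routes, so the unevenness of the 2 stages is set side by side only.

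The order of the copies was nearly the same in both genotypes. Over the 21 copies Spearman's rho between sibling- and mutant-labelled levels was 0.96 at 36hpf and 0.94 at 72hpf. Between the stages it was 0.74 under the sibling label and 0.77 under the mutant label. The size of the genotype difference was less alike between stages (rho 0.42, n = 21 copies). These are descriptions: the copies share libraries, neighbouring positions and possibly reads, and are not independent.

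Within the crystallin total the classes shifted with genotype at 36hpf and hardly at 72hpf. At 36hpf beta genes took 70.2% of crystallin reads under the sibling label and 84.2% under the mutant label, and gamma genes 29.5% and 15.7%. The *crygm2d* copies accounted for that shift, with 22.3% and 6.83%, since the other gamma genes took 7.26% and 8.88%. Alpha genes took 0.272% and 0.0488%. At 72hpf beta genes took 39.7% and 39.9% of crystallin FPKM and gamma genes 60.0% and 59.8%. Within the gamma class the *crygm2d* copies took 52.0% and 48.2% of crystallin FPKM and the other gamma genes 8.0% and 11.6%. The 36hpf shares are of reads and favour long transcripts, so they are compared between genotypes within a stage and not between stages.

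**Figure D4:**
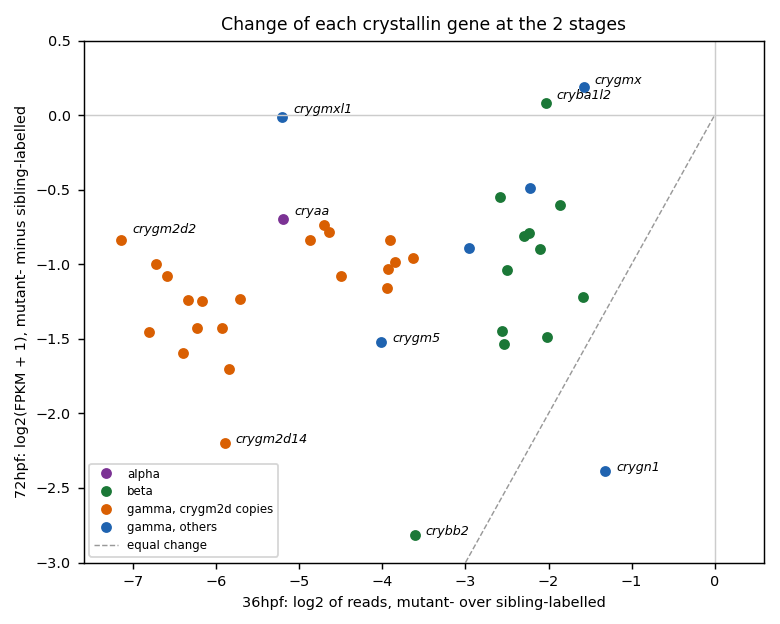
Genotype difference of each of the 40 crystallin genes that passed the minimum at both stages: log2 of TMM-scaled reads, mutant- over sibling-labelled, at 36hpf (horizontal) against the difference of log2(FPKM + 1) at 72hpf (vertical), 1 sample per genotype and stage. The dashed line marks equal change. All points but *crygn1* lie above it, and *crygmx* and *cryba1l2* lie above 0 on the vertical axis.

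Side by side, 40 crystallin genes passed the minimum at both stages and 38 of these were lower in mutant-labelled eyes at both. *cryba1l2* (-2.03 and 0.082) and *crygmx* (-1.58 and 0.19) were lower at 36hpf and slightly higher at 72hpf. As numbers on their own scales, the genotype difference at 36hpf was the larger for 39 of the 40. The exception was *crygn1* (-1.32 and -2.38), which passed the minimum through the sibling-labelled library alone at both stages. Where plain ratios of FPKM were used at 72hpf, the 36hpf difference was the larger for 38. Of all genes kept, 49.0% were below 0 at 36hpf and 48.1% at 72hpf. The shares of all genes lower at both stages, or further apart at 36hpf, were not counted, so neither count is read as particular to crystallins. *crygm2d2* stood at -7.14 and -0.84. The beta genes had medians of -2.24 and -0.97, and the *crygm2d* copies -5.85 and -1.08. Across the 40 genes the difference at one stage told little of that at the other (rho 0.26, and 0.07 over the 19 genes outside the *crygm2d* group). The scales differ between stages, so the pairs are set side by side and no fold between stages was taken. *cryabb*, *crybb3*, *crygs2* and *crygs4* passed at 36hpf only, *crygm2b*, *crygm2c*, *crygm2e* and *crygm2f* at 72hpf only, and 9 genes at neither.

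Other genes of the lens fibre were lower too at 36hpf. Of 19 measured genes of a lens fibre list, which holds membrane, junction, filament and other fibre proteins, 12 were at -1 or less (6.15% of all genes kept) and 6 at -2 or less (1.4%). None was at 1 or more (8.9% of all genes kept), and the median was -1.37. *mipa* and *mipb* encode the water channel of fibre membranes and differed from each other, with 76551 and 36340 reads (-1.37) against 41931 and 2759 (-4.22). *lim2.5*, a fibre membrane protein gene, had 799 and 7 reads (-7.02), while its relative *lim2.4* had 31469 and 10205 (-1.92). *bfsp2*, a gene of the beaded filament of fibre cells, had 5301 and 706 reads (-3.20). *grifin*, a lens galectin gene, had 3390 and 69 (-5.90), *lctla* 2166 and 48 (-5.77) and *lgsn*, the lengsin gene, 365 and 8 (-5.71). Of these, *lim2.5* and *lgsn* passed the minimum through the sibling-labelled library alone. Values within the list thus ran as far as -7.02, and its highest was 0.42 (*sptb*, a spectrin gene).

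At 72hpf 17 genes of the lens fibre list passed the minimum, and their median was -0.53. Of these, 4 stood at -1 or less (9.02% of all genes kept), 1 at -2 or less (1.77%) and 1 at 1 or more (3.65%). *grifin* was the lowest, at 74.1 FPKM under the sibling label and 5.65 under the mutant label (-3.50). *fabp11b*, a fatty acid binding protein gene, was the one at 1 or more (8.98 and 19.8 FPKM, 1.06).

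Of the transcription factor genes of a lens list most lay within 1 of 0. Some of them, such as *pax6a*, are expressed in the retina too. Their whole-eye values therefore do not report the lens alone. Of 17 kept at 36hpf, 1 was at -2 or less (1.4% of all genes kept) and 3 were at -1 or less (6.15%), and the median was -0.28. *hsf4*, which acts on crystallin genes in the mouse lens, was that 1 gene, with 283 and 40 reads (-3.10), and it was the lowest at 72hpf as well, at 16.6 and 4.59 FPKM (-1.65). *sox1b*, a relative of the mouse gene Sox1 that gamma-crystallin transcription needs, had 2944 and 1310 reads (-1.46). The other gene at -1 or less was *mafaa*, with 58 and 35 reads (-1.01). *sox1a* (-0.68), *mafba* (-0.62) and *mafa* (-0.18) lay within 1 of 0. *pitx3* (-0.74), *foxe3* (-0.49), *prox1a* (0.044) and *pax6a* (0.12), all known for roles in lens development, lay within 1 of 0 too. At 72hpf all 18 genes of the list were kept, with a median of -0.18, none at -2 or less and 1 at -1 or less (9.02% of all genes kept).

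Small heat shock genes and genes linked to crystallins by naming, both outside the rule, were mostly within 1 of 0 at 36hpf. Of the small heat shock genes, which are kin to the alpha class, 4 were kept at 36hpf with a median of 0.078 and none past 1 in either direction. At 72hpf 3 were kept, of which *hspb7* and *hspb8* passed the minimum through the mutant-labelled library alone, and the third, *hspb1*, stood at 0.26. Of the genes linked to crystallins by naming, not all of them kin, 6 were kept at 36hpf with a median of 0.43. Among them *aim1a* (1.08) and *aim1b* (1.76) were at 1 or more (8.9% of all genes kept). At 72hpf 5 were kept with a median of 0.13 and none past 1.

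**Figure D5:**
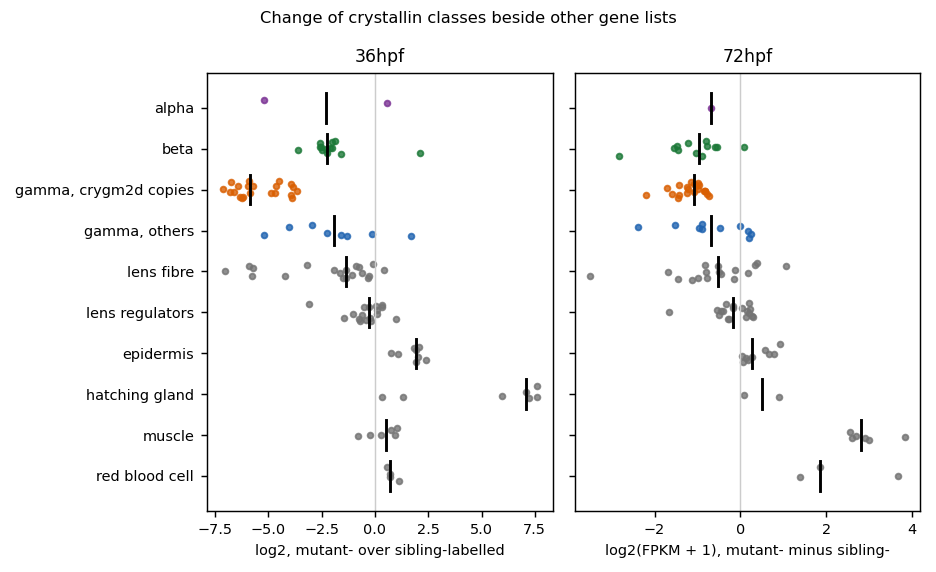
Genotype difference of each kept gene at 36hpf (left, log2 of TMM-scaled reads) and 72hpf (right, difference of log2(FPKM + 1)), by crystallin class and by list, mutant- against sibling-labelled, 1 sample each. Points are genes, bars are medians, and the 2 panels have different horizontal ranges. The *crygm2d* median lies at -5.85 on the left and -1.08 on the right, the hatching gland at 7.08 on the left, and muscle at 2.80 on the right.

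Beside the lower crystallins, markers of epidermis and hatching gland were higher in the mutant-labelled library at 36hpf. Of 8 kept epidermis genes 7 were at 1 or more (median 1.92), where 8.9% of all genes kept were, and the list took 0.171% of sibling-labelled and 0.652% of mutant-labelled reads. Of 7 hatching gland genes 6 were at 1 or more (median 7.08, and 5.96 if *he2* is set to the floor), with shares of 0.00723% and 0.0235%. Their defining genes *he1a* (43 and 8073 reads) and *he2* (0 and 106 reads) were nearly or wholly unread in sibling-labelled eyes. *he2*, *he1b* (14 and 3431 reads) and *ctslb_1* (6 and 1072 reads) passed the minimum through the mutant-labelled library alone. Muscle genes had a median of 0.53 (1 of 6 at 1 or more) and red blood cell genes 0.71 (1 of 4). Of the 8 retina genes 2 lay at -2 or less (1.4% of all genes kept) and 5 lay at -1 or less (6.15%). Their median was -1.11, and the list took 0.0871% and 0.0865% of reads.

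At 72hpf it was muscle and blood that stood out. All 6 muscle genes were at 2 or more (median 2.80), where 0.254% of all genes kept were, and the list took 0.00254% and 0.0239% of summed FPKM. Of these, *myl7*, a heart marker listed at 0 in sibling-labelled eyes, and *vmhc* (0.654 and 12.2 FPKM) passed the minimum through the mutant-labelled library alone. The 3 kept red blood cell genes were at 1 or more (median 1.85), where 3.65% of all genes kept were, with shares of 0.0630% and 0.171%. The 9 epidermis genes had a median of 0.26 with none past 1, the 2 kept hatching gland genes 0.49, and the 8 retina genes -0.10 with 1 at 1 or more. The part of these tissues in the crystallin differences was not tested.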

How the data were processed

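Poly-A RNA from whole eyes was sequenced, 1 sample per genotype and stage, with groups taken from the sample titles. The 36hpf table was made by the authors with CLC Genomics Workbench 9.0.1 on GRCz10. Its header reads FPKM, yet the deposited values have the form of expected counts, averages over 2 whole counts of reads, and the authors' log2 columns average the log2 of that pair. The sources do not say what the pair is, so it was summed and taken as 1 sample. For 72hpf the authors ran FastQC, TopHat on GRCz10 and Cufflinks, and deposited FPKM. For these tools the version is not stated in the sources, nor is the annotation. The authors' own comparisons (fold columns and a table of changed genes) were not used.

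The 36hpf sums were scaled with edgeR 4.0.16 by TMM in R 4.3.3 (effective sizes 88028822 and 107941030). A prior of 0.5 reads, proportional to library size, preceded the log2 ratio, and genes below 20 reads over both libraries were left out. At 72hpf 1 was added to FPKM before log2, and a gene needed 1 FPKM in at least 1 library. Called means 2 or more, or -2 or less. Reads carried no molecular identifiers, so intervals and the floor of 3 reads cover counting error only. Python 3.11.15, scipy 1.17.1 and matplotlib 3.10.9 were used. The 36hpf scaling and log2 ratio were tested on simulated counts, and the 72hpf steps were not.

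All alpha and beta genes, all gamma genes outside *crygm2d*, and of the copies the 4 with most sibling reads at 36hpf, the 4 with highest sibling FPKM at 72hpf and the extremes of change at each stage were named. *crygm2d5*, *crygm2d6*, *crygm2d7*, *crygm2d11*, *crygm2d15* and *crygm2d16* were named after their values were seen. Members, lists and comparisons were chosen with earlier results of these data known. Coding lengths and sequences were not used here, so 36hpf reads were not divided by length. The alternatives were other scalings (including DESeq2 1.42.0 size factors), added values, minimums, each count of a pair, copies summed, symbols merged and the family without *crygm2d* copies.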

Additional observations from a re-analysis of the deposited data

Results flagged for a closer look

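For 2 genes the genotype difference pointed one way at 36hpf and the other way at 72hpf, with 1 sample per genotype at each stage, and the difference between the stages was not tested. *cryba1l2*, an acidic beta-crystallin gene, was at -2.03 at 36hpf (16118 and 4835 reads) and at 0.082 at 72hpf (75.9 and 80.4 FPKM). *crygmx*, a gamma-crystallin gene, was at -1.58 at 36hpf (11095 and 4563 reads) and at 0.19 at 72hpf (923 and 1052 FPKM). *cryba1l2* shares its annotated span with *crybb1l2*, which was lower in mutant-labelled eyes at both stages (-2.30 and -0.81).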

How the results depend on the processing

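No paired analysis was possible because the labels give 1 sample per genotype and stage, and for the same reason no sample could be left out. The class shares per kilobase of coding length were not run, since no coding lengths were used here. With at least 100 reads, with 5 reads added or from the smaller of the 2 counts, 0 crystallins were at 2 or more at 36hpf, against 1. Adding 5 reads moved the median of the *crygm2d* copies to -5.20, and summing the copies gave -4.25 in place of -5.85. Without the *crygm2d* copies, an alternative chosen after seeing the data, 15 genes were at -2 or less at 36hpf against 36, the median of all crystallins was -2.23 and that of gamma genes -1.90, and at 72hpf 8 genes were at -1 or less against 21. With no minimum of FPKM the median of the other gamma genes at 72hpf was 0.012 in place of -0.69, because genes near 0 FPKM entered. At 72hpf *crybb2* went from -2.82 to -5.09 with 0.1 FPKM added and to -6.05 as a plain ratio, and *crygn1* from -2.38 to -3.86 and -4.24. The genes of the whole table at -2 or less were 307 at 36hpf, 829 with no minimum and 179 with at least 100 reads, and at 72hpf 307, 646 with 0.1 FPKM added and 671 as plain ratios. Of the values tracked for single genes and the whole table, 24 moved and 502 did not. Each comparison rests on 1 library per genotype, reads of close copies may be shared, and the 72hpf depth of each library is unknown, so spread between animals, single copies and low 72hpf values are the weakest points.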
